A study of Mus musculus with 18 samples.

Results

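The regulators of G protein signalling, or RGS proteins, studied here were Rgs2, Rgs4, Rgs7, Rgs9, Rgs10, Rgs14 and Rgs16. Their members were all probe sets (groups of array probes for a transcript) annotated to just 1 of these 7 symbols. That gave 13 probe sets of 22690 on the array, and 0 of the 13 carried a further symbol. Of the 13, 11 had a log2 level above 4 in at least 3 arrays and were tested among 12674 such probe sets of the series. Expression was measured on 18 Affymetrix arrays of mouse striatum with the nucleus accumbens, 1 animal per array, in 4 groups. There were 6 mutants given cocaine, 6 controls given cocaine, 3 mutants given saline and 3 controls given saline. Cocaine, which blocks the dopamine transporter, was injected at 25 mg/kg, and tissue was taken 1 h after either injection. All were littermates of 10 to 20 weeks, housed singly and handled beforehand, so the controls shared these conditions. By the title of the series the mutants had lost CaMKIV, the calcium and calmodulin dependent kinase encoded by Camk4, which phosphorylates the transcription factor CREB. The labels do not say how the mutation was made or which cells carried it. Animals were numbered in Arabic numerals (12 arrays, 3 per group) or Roman numerals (6 arrays, cocaine only, 3 per genotype). Group labels rest on the titles, since the description lines do not match them.

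RGS proteins bind active G protein alpha subunits and speed up GTP hydrolysis, which ends the signal of a G protein coupled receptor. In striatal spiny neurons these receptors include the dopamine, opioid, muscarinic and adenosine receptors. Several RGS transcripts are known to change quickly with neuronal activity, so that a stimulus can alter how long later receptor signals last.

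All 7 members were matched by gene ID to the RefSeq annotation of mouse genome build GRCm38.p6. There, 4 of them lie on chromosome 1 (Rgs2, Rgs4, Rgs7 and Rgs16), with Rgs9 on chromosome 11, Rgs10 on chromosome 7 and Rgs14 on chromosome 13. RefSeq promoter windows were at hand for 6 members, all but Rgs14. Because CREB binds the cAMP response element, the 250 bases before each start were searched on both strands for its short core TGACG, which reads CGTCA on the other strand, and for the full site TGACGTCA, in which the core and its reverse overlap. The core was in 2 of the 6 windows, those of Rgs2 and Rgs4, and the full site in 0. The windows of Rgs7 and Rgs10, which held no core, did not end at the annotated start of the gene. Over all 32851 windows of the same length, 17.8% held the core and 1.55% the full site. The windows of Rgs2 (chr1:144004150-144004399, minus strand), Rgs4 (chr1:169747643-169747892, minus strand) and Rgs9 (chr11:109298182-109298431, minus strand) are shown because the differences described below were in these genes. They are written 5′ to 3′ in the direction of the gene, and capitals mark the cores.
Rgs2: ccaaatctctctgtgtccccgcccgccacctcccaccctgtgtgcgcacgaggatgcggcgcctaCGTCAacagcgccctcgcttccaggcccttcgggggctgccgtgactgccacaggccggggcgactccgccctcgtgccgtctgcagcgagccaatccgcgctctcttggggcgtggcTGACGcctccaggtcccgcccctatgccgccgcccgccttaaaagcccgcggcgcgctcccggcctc
Rgs4: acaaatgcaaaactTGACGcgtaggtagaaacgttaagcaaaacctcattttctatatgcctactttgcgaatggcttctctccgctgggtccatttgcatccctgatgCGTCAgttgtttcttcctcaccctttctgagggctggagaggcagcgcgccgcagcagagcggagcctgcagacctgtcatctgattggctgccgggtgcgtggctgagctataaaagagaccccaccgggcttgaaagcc
Rgs9: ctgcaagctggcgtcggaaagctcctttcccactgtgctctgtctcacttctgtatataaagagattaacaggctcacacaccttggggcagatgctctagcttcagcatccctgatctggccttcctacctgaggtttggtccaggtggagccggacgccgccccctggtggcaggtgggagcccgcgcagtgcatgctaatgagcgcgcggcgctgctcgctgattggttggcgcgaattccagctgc
In Rgs2 the cores began 185 and 67 bases before the start, and in Rgs4 they began 236 and 141 bases before it. The Rgs9 window held none. A match is a description of letters and was not tested for binding.

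The treatment and the genotype were first read from known genes. Fos and Arc, immediate early genes of neuronal activity, rose by 4.55 ± 0.48 and 2.96 ± 0.37 on the log2 scale (± SE) with cocaine averaged over genotypes, with limma adjusted p of 0.000553 and 0.000834. Camk4 probe set 1426167_a_at averaged 7.27 ± 0.27 in mutants and 7.65 ± 0.10 in controls after cocaine (SD, n = 6 each). After saline it averaged 7.30 ± 0.16 in mutants and 7.65 ± 0.06 in controls (SD, n = 3 each), and the genotype difference averaged over treatments was -0.37 ± 0.09 (limma adjusted p = 0.611). A further tested Camk4 probe set, 1421941_at, was at -0.75 ± 0.31 after cocaine and -0.23 ± 0.43 after saline in mutants relative to controls. Averaged over treatments it was at -0.49 ± 0.27 (limma adjusted p = 0.679). Where the Camk4 probes lie relative to the mutation is not known here, so these values check the labels only in part. The array of mutant cocaine replicate 5 stood apart. Its mean correlation with the other arrays was 0.966, against 0.976 to 0.990 for the remaining 17, and its difference between the 3′ and 5′ actin control probe sets, a measure of RNA integrity, was 3.59 log2 units, against 1.57 to 2.55 elsewhere. Several values are given below with and without that array. Spiny neuron markers were present, with 8 of 12 listed genes measured, among them Ppp1r1b, Penk and Tac1. Their summed linear level was 48542 to 50882 in mutant cocaine, 45304 to 54577 in control cocaine, 49788 to 52404 in mutant saline and 49015 to 50888 in control saline arrays. In tissue RNA, fewer cells of a type and less RNA per cell cannot be told apart.

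Across the 7 contrasts of the design, 0 of the 11 tested RGS probe sets passed an adjusted p of 0.05 in limma's moderated test. Over all probe sets the share called was 0.221% for cocaine against saline averaged over genotypes, 0.0473% for cocaine in mutants and 0.110% for cocaine in controls. It was 0% for mutant against control after cocaine, after saline and averaged over treatments, and 0% for the genotype by cocaine interaction, the mutant minus the control response. At an unadjusted p under 0.05, the averaged cocaine contrast held 2 RGS probe sets that were higher and 2 that were lower, where 2.56% and 2.52% of all probe sets lay. Cocaine in mutants held 1 higher and 2 lower, with 2.98% and 3.97% over all, and cocaine in controls held 2 higher and 0 lower, with 1.76% and 0.844% over all. Mutant against control after cocaine held 0 higher and 3 lower, with 5.81% and 5.79% over all. After saline it held 1 higher and 2 lower, with 1.83% and 0.931% over all, and averaged over treatments 1 higher and 2 lower, with 4.83% and 2.30% over all. The interaction held 0 in either direction, with 1.21% higher and 1.48% lower over all (2.68% together). The median log2 difference of the 11 was 0.03 for averaged cocaine, against 0.00 over all probe sets, and -0.16 for mutant against control after cocaine, against 0.01 over all. With 1 probe set per gene, so that the 3 Rgs4 and 2 Rgs2 probe sets count once each, the medians over the 7 genes were 0.03 and -0.05. For the interaction the median of the 11 was -0.14, against -0.01 over all. Over the 7 genes it was -0.12, and whether the members shift as a set was not tested. The median of the 11 was -0.05 for cocaine in mutants and 0.07 in controls, against -0.003 and 0.001 over all. For mutant against control it was -0.01 after saline and -0.02 averaged over treatments, against 0.01 over all for both.

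**Figure D1:**
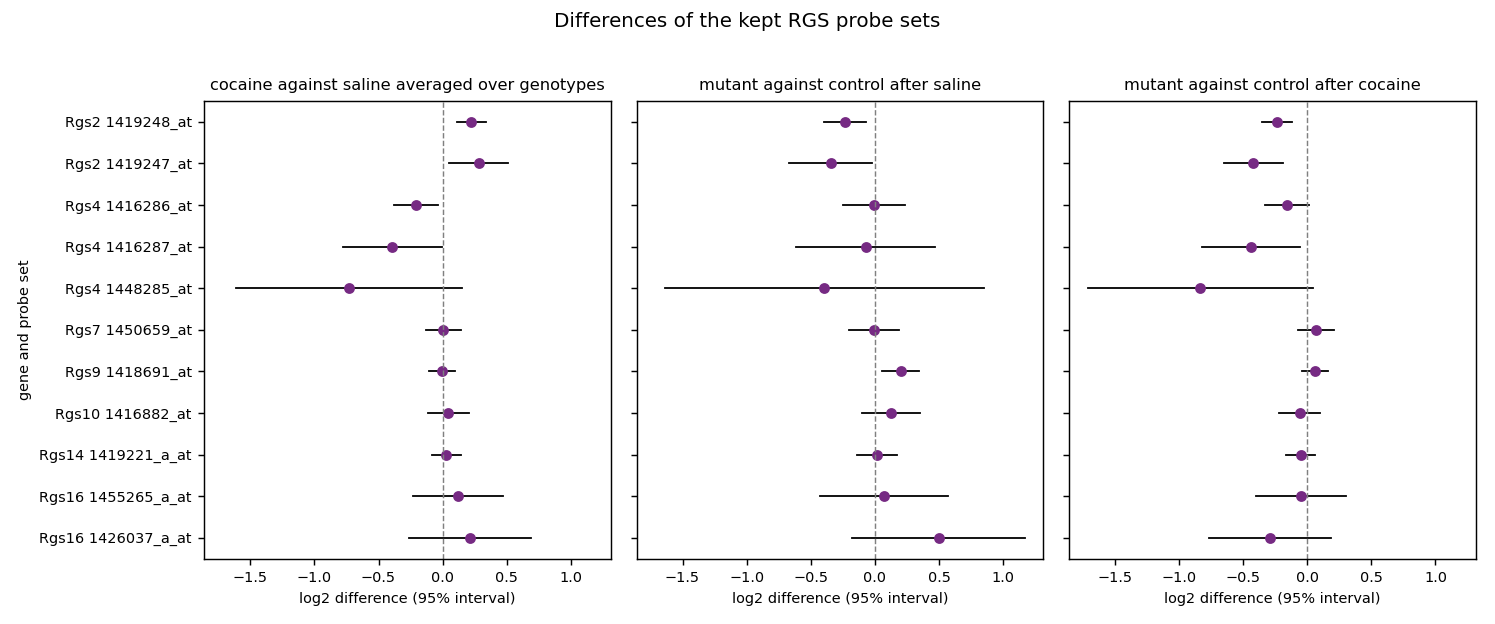
Log2 differences of the 11 tested RGS probe sets with 95% intervals from the limma fit, for cocaine against saline averaged over genotypes (left), mutant against control after saline (middle) and mutant against control after cocaine (right). The 2 Rgs2 probe sets lie above 0 on the left and below 0 in the other panels, while the Rgs4 intervals differ widely in width.

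Rgs2 encodes a small RGS protein that acts preferentially on Gq alpha subunits. Its transcript level was higher after cocaine than after saline in both genotypes, and lower in mutants than in controls after either injection, but no contrast passed the adjusted threshold. On probe set 1419248_at the log2 level after cocaine was lowest at 12.61, median 12.78 and highest 12.93 in mutants, and lowest at 12.92, median 12.97 and highest 13.20 in controls. After saline it was 12.38, 12.38 and 12.61 in the 3 mutants and 12.78, 12.54 and 12.73 in the 3 controls. Every cocaine array lay above the saline arrays of its genotype, a pattern that 1.79% of all probe sets showed in mutants and 1.38% in controls. In mutants the lowest cocaine array (12.6067) and the highest saline array (12.6064) nearly touched. Among the Arabic-numbered arrays alone the background of that pattern was 7.42% in mutants and 5.33% in controls.

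The cocaine difference of 1419248_at was 0.22 ± 0.07 in mutants (limma adjusted p = 0.66) and 0.23 ± 0.07 in controls (adjusted p = 1). Averaged over genotypes it was 0.22 ± 0.05, a fold of 1.17, with an adjusted p of 0.165 in limma. The mutant minus control response was 0.00 ± 0.09, with a 95% interval of -0.20 to 0.19, so that differences of up to about that size could not be resolved. Without mutant cocaine replicate 5 the averaged value kept its size at 0.22 ± 0.05 and passed (limma adjusted p = 0.0366), where 0.750% of all probe sets were called higher. Within the Arabic-numbered arrays it was also 0.22 ± 0.05 (limma adjusted p = 0.0312), with 0.773% called higher. Because no saline animal is Roman-numbered, the averaged difference itself rests on those 12 arrays, and the Roman-numbered ones bear on its error.

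**Figure D2:**
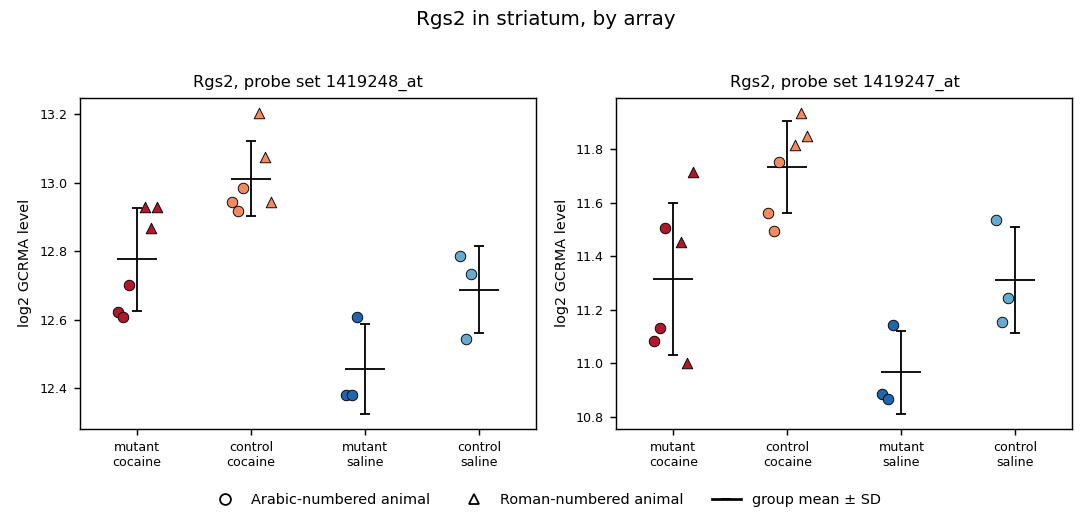
Log2 level of both Rgs2 probe sets in each array, by group (horizontal axis), with circles for Arabic-numbered and triangles for Roman-numbered animals and bars for the group mean ± SD. On 1419248_at the mutant saline arrays lie lowest at 12.38 to 12.61 and the control cocaine arrays highest at 12.92 to 13.20.

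Probe set 1419247_at gave the same order of group means at another level. After cocaine it averaged 11.31 ± 0.28 in mutants and 11.73 ± 0.17 in controls (SD, n = 6 each). After saline it averaged 10.97 ± 0.15 in mutants and 11.31 ± 0.20 in controls (SD, n = 3 each). Its averaged cocaine difference was 0.28 ± 0.11 (limma adjusted p = 0.859). In the saline arrays the mutants, at 10.89, 10.87 and 11.14, all lay below the controls, at 11.54, 11.15 and 11.24, which 4.56% of all probe sets did.

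The genotype difference of Rgs2 after cocaine was -0.24 ± 0.05 on 1419248_at and -0.42 ± 0.11 on 1419247_at, each with a limma adjusted p of 0.427. Without mutant cocaine replicate 5 the value on 1419247_at was -0.33 ± 0.09 (limma adjusted p = 0.561). After saline these were -0.23 ± 0.08 and -0.35 ± 0.15 (limma adjusted p = 1 for both). Averaged over treatments, 1419248_at ranked 3rd of the 12674 probe sets by p, at -0.23 ± 0.05 (limma adjusted p = 0.465). Within the Arabic-numbered arrays the difference after cocaine was -0.31 ± 0.07 on 1419248_at and -0.36 ± 0.13 on 1419247_at. Within the Roman-numbered arrays it was -0.17 ± 0.07 and -0.48 ± 0.18, and no value within a series passed (limma adjusted p from 0.626 to 0.675). On 1419248_at the mutants lay below the controls without overlap in each numbering series, at a background of 6.03% in the Arabic and 7.15% in the Roman series. On 1419247_at they did so in the Roman series only. Over both series together the genotypes overlapped after cocaine on both probe sets. After saline they overlapped on 1419248_at. With the actin difference as a covariate the values after cocaine were -0.23 ± 0.06 and -0.35 ± 0.08. Roman-numbered arrays stood 0.20 ± 0.05 above Arabic-numbered ones on 1419248_at (limma adjusted p = 0.0433), a term that passed for 6.16% of all probe sets.

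Rgs4 encodes an RGS protein that acts on Gi, Go and Gq alpha subunits and is abundant in striatum and cortex. In the fit with the numbering series, its 3 probe sets were all lower after cocaine than after saline in both genotypes, with no adjusted call over the 18 arrays. On 1416286_at the level after cocaine was lowest at 12.72, median 12.86 and highest 13.39 in mutants, and lowest at 13.00, median 13.14 and highest 13.25 in controls. After saline it was 13.20, 13.11 and 13.17 in mutants and 13.14, 13.17 and 13.19 in controls. The cocaine groups overlapped the saline levels, with most Roman-numbered arrays above the Arabic-numbered ones and mutant cocaine replicate 5 lowest of all.

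On 1448285_at the Arabic-numbered cocaine arrays were at 8.06, 8.28 and 8.24 in mutants and 8.88, 8.32 and 8.47 in controls. The Roman-numbered cocaine arrays were at 10.28, 6.92 and 10.17 in mutants and 10.67, 10.40 and 10.20 in controls. The saline arrays were at 8.96, 8.81 and 8.95 in mutants and 9.31, 9.16 and 9.42 in controls. The array at 6.92 is mutant cocaine replicate 5, and the Roman-numbered arrays stood 1.40 ± 0.42 above the Arabic-numbered ones in the fit (limma adjusted p = 0.0571).

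**Figure D3:**
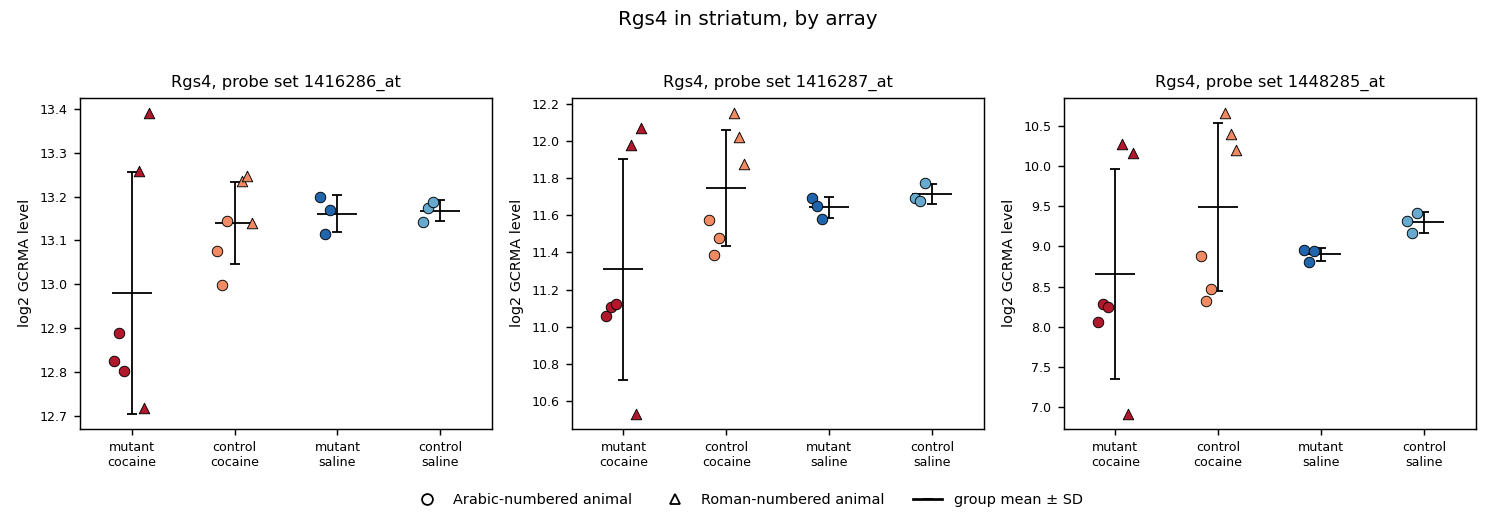
Log2 level of the 3 Rgs4 probe sets in each array, by group, with circles for Arabic-numbered and triangles for Roman-numbered animals and bars for the group mean ± SD. Among circles the cocaine groups lie below the saline groups of the same genotype on 1416287_at and 1448285_at, and the lowest triangle in each panel is mutant cocaine replicate 5, at 6.92 on 1448285_at.

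Averaged over genotypes, the cocaine difference of Rgs4 was -0.21 ± 0.08 on 1416286_at, -0.39 ± 0.18 on 1416287_at and -0.73 ± 0.42 on 1448285_at (limma adjusted p = 0.859 for each). These values rest on the numbering series term. Without it they were -0.10 ± 0.08, -0.15 ± 0.18 and -0.03 ± 0.46, and in controls alone the sign turned on 1416287_at (0.03 ± 0.26) and 1448285_at (0.19 ± 0.65), with a limma adjusted p of at least 0.715 for all of these. Without mutant cocaine replicate 5 the sizes could not change, because no saline animal is Roman-numbered. The standard errors fell to 0.05, 0.06 and 0.09, and all 3 passed (limma adjusted p = 0.0435, 0.0054 and 0.000761). Of all probe sets 2.11% were then called lower. Within the Arabic-numbered arrays the adjusted p values in limma were 0.00578, 0.00141 and 0.00229, with 2.62% called lower. All 3 probe sets had their Arabic-numbered cocaine arrays below the saline arrays in mutants (background 12.2%), and 2 of the 3 in controls (background 7.39%).

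By genotype within the Arabic-numbered arrays, the cocaine difference on 1416287_at was -0.55 ± 0.05 in mutants (limma adjusted p = 0.0042) and -0.24 ± 0.05 in controls (limma adjusted p = 0.0935). On 1416286_at it was -0.32 ± 0.04 in mutants (limma adjusted p = 0.0298) and -0.09 ± 0.04 in controls (limma adjusted p = 0.487). These 2 probe sets were among the 3 called in mutants there, which is 0.0237% of those tested, all 3 being lower. In that fit 0 were called higher, so the check genes Fos and Arc were not called higher there. On 1448285_at the cocaine difference was -0.71 ± 0.13 in mutants (limma adjusted p = 0.0987) and -0.74 ± 0.13 in controls (limma adjusted p = 0.0346), where 0.142% were called lower. The mutant minus control response was -0.31 ± 0.08 on 1416287_at, -0.23 ± 0.06 on 1416286_at and 0.03 ± 0.18 on 1448285_at, and none passed (limma adjusted p of at least 0.965). Over all 18 arrays these responses were -0.36 ± 0.31, -0.15 ± 0.14 and -0.44 ± 0.72 (limma adjusted p = 0.992 for each). Over all arrays but mutant cocaine replicate 5 they were -0.14 ± 0.11, -0.07 ± 0.09 and 0.10 ± 0.17, so the sign on 1448285_at changed. In the same order, the cocaine difference over all 18 arrays was -0.57 ± 0.24, -0.28 ± 0.11 and -0.95 ± 0.55 in mutants (limma adjusted p = 0.66, 0.66 and 0.667). In controls it was -0.21 ± 0.24, -0.13 ± 0.11 and -0.51 ± 0.55, and none passed.

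Rgs4 after cocaine was -0.16 ± 0.08, -0.44 ± 0.18 and -0.83 ± 0.42 in mutants relative to controls on 1416286_at, 1416287_at and 1448285_at (limma adjusted p = 0.434, 0.427 and 0.434). Within the Arabic-numbered arrays the values were -0.23 ± 0.04, -0.38 ± 0.05 and -0.36 ± 0.13. In that series the mutants lay below the controls without overlap on all 3 probe sets (background 6.03%), and the limma adjusted p values were 0.359, 0.168 and 0.626. Within the Roman-numbered arrays they were -0.08 ± 0.17, -0.49 ± 0.40 and -1.30 ± 0.89. Without mutant cocaine replicate 5 they were -0.08 ± 0.06, -0.21 ± 0.07 and -0.29 ± 0.10 over both series. After saline the values were -0.01 ± 0.11, -0.07 ± 0.26 and -0.39 ± 0.59. On 1448285_at the 3 mutants lay below the 3 controls without overlap after saline (background 4.56%), and within the Arabic-numbered arrays, which hold all saline animals, the difference there was -0.39 ± 0.13 (limma adjusted p = 0.84).

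The actin 3′ minus 5′ difference was highest in mutant cocaine replicate 5, the lowest array on all 3 Rgs4 probe sets, and lower in the other Roman-numbered arrays than in the Arabic-numbered cocaine arrays. Within the Arabic-numbered arrays it was nearly the same after both injections in mutants, and higher after cocaine than after saline in controls. It averaged 2.33 ± 0.16 in mutants and 2.43 ± 0.19 in controls among Arabic-numbered cocaine arrays, and 2.31 ± 0.09 in mutants and 2.08 ± 0.20 in controls after saline (SD, n = 3 each). In the Roman-numbered arrays other than mutant cocaine replicate 5 it was 1.57 to 1.91. With that difference as a covariate, the averaged cocaine difference of Rgs4 was -0.17 ± 0.06, -0.28 ± 0.09 and -0.45 ± 0.15 on 1416286_at, 1416287_at and 1448285_at, with limma adjusted p from 0.457 to 0.586. In the same order and with the covariate, it was -0.25 ± 0.08, -0.46 ± 0.11 and -0.67 ± 0.20 in mutants. In controls it was -0.09 ± 0.08, -0.10 ± 0.11 and -0.23 ± 0.20, and none passed in either genotype. Of 10 cortical glutamatergic markers 2 were measured, Lamp5 (mean log2 level 11.1) and Tbr1 (3.64), so their sum is nearly all Lamp5. Their summed linear level in Arabic-numbered arrays was 2032 to 2151 in mutant cocaine, 2200 to 2327 in control cocaine, 2003 to 2327 in mutant saline and 2150 to 2529 in control saline. Whether Lamp5 follows the amount of cortical tissue in these arrays was not tested. The part of RNA integrity in the Rgs4 values was not tested beyond the actin covariate, and that of cortical tissue was not tested.

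**Figure D4:**
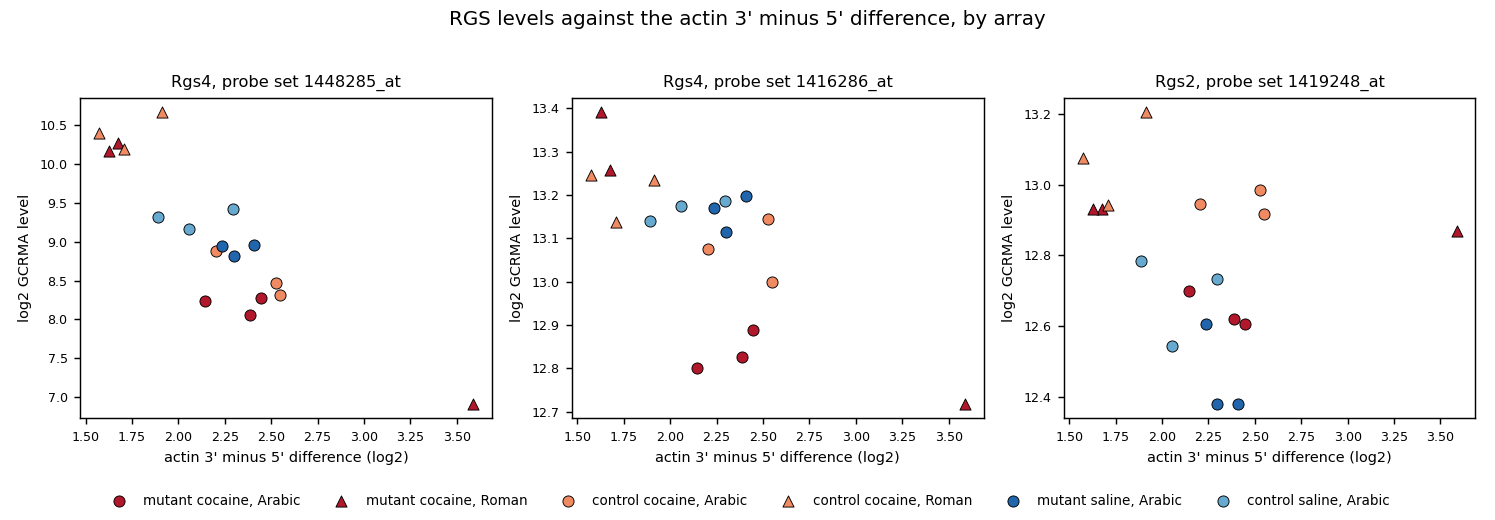
Log2 level of Rgs4 1448285_at, Rgs4 1416286_at and Rgs2 1419248_at (vertical axes) against the actin 3′ minus 5′ difference of the same array in log2 units, with colours for groups and triangles for Roman-numbered animals. The array at 3.59 is mutant cocaine replicate 5, which is lowest on both Rgs4 probe sets but at 12.87 on Rgs2.

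Rgs9 encodes an RGS protein of the R7 subfamily, which works in a complex with the G protein beta subunit Gnb5. A splice form enriched in striatum limits dopamine D2 and opioid receptor signalling. On 1418691_at the level after saline was 12.24, 12.34 and 12.24 in mutants and 12.00, 12.10 and 12.12 in controls. All mutants lay above all controls, which 7.19% of all probe sets did, and the difference of 0.20 ± 0.07 did not pass (limma adjusted p = 1).

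After cocaine Rgs9 was lowest at 12.08, median 12.13 and highest 12.20 in mutants, and lowest at 11.97, median 12.04 and highest 12.37 in controls. The groups overlapped through 1 control array, replicate 3 at 12.37, and the difference was 0.06 ± 0.05 (limma adjusted p = 0.567). Averaged over treatments the genotype difference was 0.13 ± 0.04 (limma adjusted p = 0.679). All 6 mutant cocaine arrays lay below the 3 mutant saline arrays, as did 2.56% of all probe sets, with a difference of -0.08 ± 0.06 (limma adjusted p = 0.729). Among the Arabic-numbered arrays alone the background of that pattern was 12.2%. Roman-numbered arrays, which were all given cocaine, stood at -0.11 ± 0.05 relative to Arabic-numbered ones on this probe set (limma adjusted p = 0.161). The averaged cocaine difference was 0.00 ± 0.05, with a 95% interval of -0.11 to 0.10. A second Rgs9 probe set, 1426033_at, lay between 2.05 and 2.09 in all arrays and was not tested.

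Rgs7 is the other R7 member here. Its level on 1450659_at averaged 8.91 ± 0.11 in mutants and 8.85 ± 0.11 in controls after cocaine (SD, n = 6 each), and 8.87 ± 0.09 in mutants and 8.88 ± 0.09 in controls after saline (SD, n = 3 each). The genotype difference after cocaine was 0.18 ± 0.09 within the Roman-numbered and -0.05 ± 0.09 within the Arabic-numbered arrays (limma adjusted p = 0.675 and 0.93). In the Roman series the Rgs7 and Rgs9 mutants lay above the controls without overlap, as did 7.91% of all probe sets.

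Rgs10, a small protein acting on Gi alpha subunits in neurons and microglia, averaged 9.76 ± 0.06 in mutants and 9.81 ± 0.16 in controls after cocaine (SD, n = 6 each) on 1416882_at. After saline it averaged 9.79 ± 0.03 in mutants and 9.66 ± 0.21 in controls (SD, n = 3 each). Its averaged cocaine difference was 0.04 ± 0.08, with a 95% interval of -0.11 to 0.20. Of 13 microglial markers 12 were measured, and 0 passed in any contrast.

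Rgs14, which also binds Ras family proteins and inactive Gi alpha, had the narrowest range of the 11 tested probe sets, 0.27 log2 units on 1419221_a_at. It averaged 9.57 ± 0.07 in mutants and 9.62 ± 0.10 in controls after cocaine, and 9.56 ± 0.05 in mutants and 9.54 ± 0.07 in controls after saline (SD, n = 6 and 3 per group). Its averaged cocaine difference was 0.03 ± 0.05, with a 95% interval of -0.08 to 0.14.

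Rgs16, which acts on Gi and Gq alpha subunits, was near the lower limit of the array. Probe set 1455265_a_at was above 4 in 17 arrays (3.55 to 4.96) and 1426037_a_at in 9 (3.47 to 4.98), the fewest of any tested RGS probe sets where the filter asks for 3, while 1451452_a_at (2.46 to 2.62) was above 4 in 0 and fell outside it. On 1426037_a_at the cocaine difference was -0.18 ± 0.30 in mutants and 0.60 ± 0.30 in controls, and the mutant minus control response was -0.79 ± 0.39 (limma adjusted p = 0.992). On 1455265_a_at these were 0.06 ± 0.22, 0.18 ± 0.22 and -0.12 ± 0.29. Its highest array, at 4.96, was mutant cocaine replicate 5, and without it they were -0.02 ± 0.16, 0.26 ± 0.16 and -0.28 ± 0.21, so the uncalled value in mutants changed sign.

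**Figure D5:**
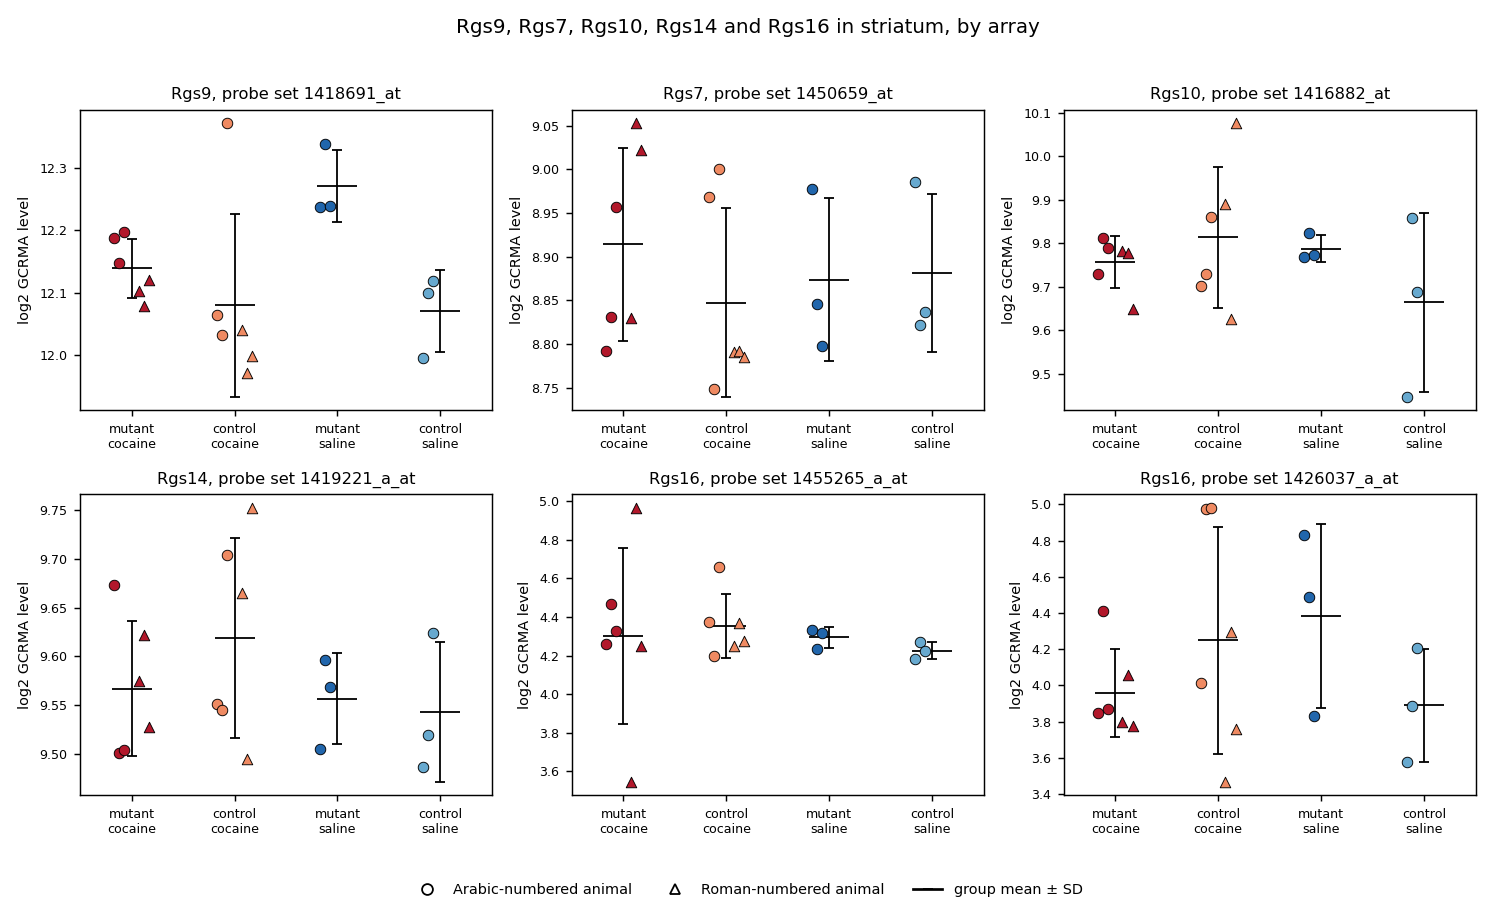
Log2 level of the tested probe sets of Rgs9, Rgs7, Rgs10, Rgs14 and Rgs16 in each array, by group, with circles for Arabic-numbered and triangles for Roman-numbered animals and bars for the group mean ± SD. In the Rgs9 panel the mutant saline arrays lie at 12.24 to 12.34 above the control saline arrays at 12.00 to 12.12, and 1 control cocaine array lies at 12.37.

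The genes around the RGS proteins were read from lists. Of 30 symbols of other RGS family genes 14 were measured, of 12 RGS partners 4, of 27 G protein subunits 19, and of 25 striatal receptors and effectors 6, and 0 passed in any of the 7 contrasts in either direction. At an unadjusted p under 0.05, mutant against control after cocaine held 2 of the 14, 0 of the 4, 4 of the 19 and 0 of the 6, where 11.6% of all probe sets lay. Averaged cocaine held 0, 0, 3 and 0, with 5.09% over all. In the same order of lists, cocaine in mutants held 1, 0, 5 and 1 (6.95% over all) and cocaine in controls 0, 0, 1 and 0 (2.60% over all). Mutant against control held 1, 0, 1 and 0 after saline (2.76% over all) and 0, 0, 2 and 0 averaged over treatments (7.13% over all), and the interaction held 1, 0, 3 and 0 (2.68% over all).

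Gnb5, the beta subunit that R7 proteins need, differed by -0.10 ± 0.06 with cocaine averaged over genotypes and by 0.08 ± 0.09 between mutant and control after saline. Rgs3, another family member, was at 0.31 ± 0.09 in mutants relative to controls after cocaine (limma adjusted p = 0.427). Gnai2, a Gi alpha subunit and so an RGS substrate, was at 0.35 ± 0.12 in that contrast, and the gamma subunit Gng13 at 0.36 ± 0.10 (limma adjusted p = 0.427 for both). Lower there were Snx14 of the family list at -0.18 ± 0.08 and the subunit Gnb4 at -0.22 ± 0.09 (limma adjusted p = 0.427 for both). Plcb1 was at -0.18 ± 0.13 and Htr2c at -0.71 ± 0.47 (limma adjusted p = 0.533 and 0.495). Rgs11, also of the family list, was at 0.41 ± 0.17 in mutants relative to controls after saline and did not pass. Gnai3, another Gi alpha subunit, was at 0.19 ± 0.07 with cocaine averaged over genotypes (limma adjusted p = 0.819). Drd2, the dopamine D2 receptor, was at 0.13 ± 0.07 after cocaine and 0.11 ± 0.10 after saline in mutants relative to controls (limma adjusted p = 0.439 and 1). The serotonin receptor Htr2c was at -0.97 ± 0.47 with cocaine averaged over genotypes (limma adjusted p = 0.859).

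The patterns of the members over the 12 Arabic-numbered arrays, which share the groups, are given as descriptions. The 2 Rgs2 probe sets correlated at a Pearson r of 0.939, and Rgs4 1416286_at correlated at 0.953 with 1416287_at and 0.844 with 1448285_at. Between Rgs2 1419248_at and the 3 Rgs4 probe sets r was -0.09, -0.12 and -0.14. The genes most like Rgs2 were Rnd3 (r = 0.917), Errfi1 (0.890) and Dusp14 (0.873), and those most like Rgs4 were Zkscan3 (0.921), Cab39 (0.912) and Atp1b1 (0.905). Kansl2 was most like Rgs9 (0.938), Gda most like Rgs7 (0.854), St6galnac4 most like Rgs10 (0.900), Cfl2 most like Rgs14 (0.892) and Pcgf6 most like Rgs16 (0.866). With 12 arrays and 7583 named genes, likeness of this size is a ranking only.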

How the data were processed

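The authors deposited log2 expression values made with GCRMA in R 2.4.1, per the submitters' processing notes, with settings not given in the sources used here. GCRMA includes a normalisation between arrays, so a change in total signal may be lost; array medians ran from 4.98 to 5.19. The deposited values ran from 1.07 to 15.4. No counting depth applies, and the number of arrays limits the precision. Per the labels, each array is a separate animal.

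Probe sets above a log2 level of 4 in at least 3 arrays were kept, without the 64 control probe sets. The model, fitted in R 4.3.3 by limma 3.58.1, had a term for group (4 levels), one for numbering series, an intensity trend, two-sided moderated tests and Benjamini-Hochberg adjustment over 12674 probe sets. The fit had 13 residual and 3.13 prior degrees of freedom. Within-series values came from refits, and the fit was checked on simulated data. Differences are given ± SE.

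The members and lists were chosen with earlier results of these data known. All member probe sets are named, with Camk4, Fos and Arc. From each list the naming rule takes the 3 genes of smallest p in each of 3 contrasts, and for each member the 3 genes most alike; examples of both are given. Where 1 value per gene was used, it was the probe set of highest mean level.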

Additional observations from a re-analysis of the deposited data

Results flagged for a closer look

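Rgs9 on probe set 1418691_at stood at 12.37 in control cocaine replicate 3, far from the other 5 arrays of its group, the nearest of which was at 12.06. That gap took up 0.767 of the group's range. It was 1 of 26 groups examined for such an array, and these share arrays, so they are not independent. With that many examined, such an array can arise by chance, and how often was not tested. Without that array the cocaine difference of Rgs9 in controls was -0.01 ± 0.04, against 0.07 ± 0.06 with it, and neither passed the adjusted threshold in limma (adjusted p = 1 for both).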

How the results depend on the processing

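The count of RGS probe sets past the adjusted threshold was 0 in each of the 7 contrasts and stayed 0 in most of the 33 other settings. The exceptions were all in cocaine against saline. Averaged over genotypes, the count was 1 without the numbering series term, 4 in the Arabic-numbered arrays alone and 2 with array weights. Over all probe sets the share called was 0.529%, 3.39% and 0.813% in these settings, against 0.221% in the main fit. In those Arabic-numbered arrays the count was 2 in mutants and 1 in controls, with 0.0237% and 0.339% over all. Leaving out 1 array at a time gave 0 to 4 averaged over genotypes, 0 to 2 in mutants and 0 to 1 in controls, with the highest values from leaving out mutant cocaine replicate 5. Without that array 2.86% of all probe sets were called averaged over genotypes, 0.205% in mutants and 0.221% in controls. The added calls were all of Rgs2 1419248_at (higher) or Rgs4 (lower). Without the numbering series term the averaged Rgs2 difference was 0.32 (limma adjusted p = 0.0166). With array weights the averaged Rgs4 differences on 1416287_at and 1448285_at were -0.41 and -0.74 (limma adjusted p = 0.0176 and 0.0238). The values per gene were those of its probe set of highest mean level. Of these, 1490 kept their direction or moved by less than 1 standard error, without a change of call. A further 6 gained a call, 0 were called in the opposite direction, and 2 uncalled values moved further and changed sign. Those were Rgs9 with cocaine in controls, given above, and Rgs7 after cocaine in the Arabic-numbered arrays (-0.05, against 0.07). On the other Rgs4 probe sets, uncalled values in controls changed sign without the numbering series term, as given above. With the replicate block 0 RGS probe sets passed in any contrast. With blocks of consecutive animal numbers, an alternative run beside it, 0 RGS probe sets passed, and calls over all probe sets were 16 averaged over genotypes, 0 in mutants and 0 in controls, against 28, 6 and 14. Replicate numbers did not pair the animals: of 21 same-number pairs 6 correlated above 0.1, and 4 of 18 arrays correlated best with their own number. For the consecutive blocks these were 8 of 21 pairs and 5 of 18 arrays. Fits of only the groups compared gave no value for averaged contrasts and the interaction, and the Roman-numbered arrays alone gave values after cocaine only. Small differences in Rgs16 are limited by its nearness to background.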
